A study of Mus musculus with 9 samples.

Results

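Glutathione S-transferases (GSTs) join the tripeptide glutathione to reactive, electrophilic compounds, so that the products can be exported from the cell and excreted. The soluble enzymes are dimers whose subunits come from classes named by Greek letters, and the alpha, mu and pi classes are abundant in liver, where they handle drugs, plant compounds and products of lipid peroxidation. The GST genes described here were 10 members of these classes, taken by symbol from the 23337 genes of the count tables: Gsta1, Gsta2, Gsta3 and Gsta4 of the alpha class, Gstm1, Gstm2, Gstm3 and Gstm6 of the mu class, and Gstp1 and Gstp2 of the pi class. All 10 passed the filter on low counts, as did 12587 genes in all. Gsta1 passed mainly through its ND libraries, with 13 to 43 reads there and at most 18 elsewhere.

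The livers came from wild-type mice (genotype WT), dissected in the fed state after 12 weeks on a diet begun at 8 weeks of age. The 3 groups were a normal diet (ND), a high-fat diet labelled 60% (HFD) and the same HFD with 0.25% hyodeoxycholic acid, a bile acid (HFD_HDCA), with 3 livers each. Strain and sex are not given in the sources used here. The study concerns hepatic steatosis, and no GST gene was altered by design.

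Reads on genes numbered 16994353 to 20509203 per library. Levels are given as CPM, read counts scaled to library size, and between genes as FPKM, which also divides by transcript length. The 8 hepatocyte markers together held 86204 to 94079 CPM in ND, 101634 to 121502 in HFD and 106644 to 120226 in HFD_HDCA, and no list of markers had a gene at 0 in every library. Some libraries stood apart. HFD 1 held 740.4 CPM over 13 clock genes, against 354 and 337 in HFD 2 and HFD 3. HFD_HDCA 1 held 21988 CPM over 10 acute phase genes, against 7886 and 8416 in HFD_HDCA 2 and HFD_HDCA 3. Macrophage markers summed to 318 to 373 CPM in ND, 111 to 790.3 in HFD and 287 to 594 in HFD_HDCA. The part of these in the GST results was not tested, and values without the first 2 libraries are given where a result rests on them. In bulk liver, fewer hepatocytes and less RNA per hepatocyte cannot be told apart.

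Most of these GST genes were lowest in the livers of mice fed HFD with HDCA. Relative to ND, 6 of the 10 fell in HFD_HDCA, by 2.22-fold (Gstm6) to 9.72-fold (Gsta2), where 2.82% of all genes tested were called lower. The call of Gstp2, 1 of the 6, held in only 3 of the 9 fits that each left out 1 library. The means were ordered ND above HFD above HFD_HDCA for 7 of the 10 genes, an order found in 2515 of the 12587 genes tested. Gsta1, which passed the filter mainly through its ND libraries, is among the 7. In Gstm1 and Gstm6 the ranges of all 3 groups were also separate, as they were in 0.683% of genes tested. Gsta3 kept a high level throughout, and Gstp1 was low in every HFD library but spread widely with HDCA.

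**Figure D1:**
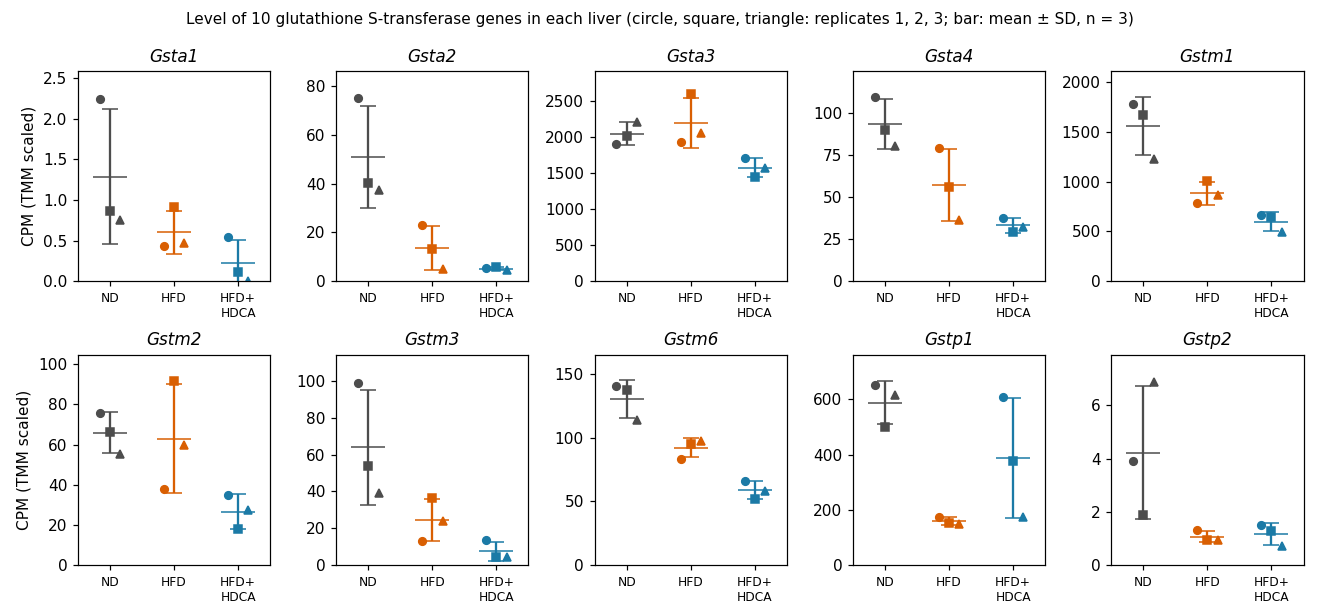
Level of each GST gene in each liver, in CPM on a linear axis from 0, for ND, HFD and HFD_HDCA. Points are single libraries and bars give the mean ± SD (n = 3). Gstm1 and Gstm6 step down without overlap from ND to HFD to HFD_HDCA, and Gstp1 in HFD_HDCA runs from 174 to 607 CPM.

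On the scale that corrects for length, 4 genes carried most of the transcripts in ND. These were Gstp1 at 1352 ± 150.5, Gsta3 at 1210.0 ± 73.8, Gstm1 at 1065 ± 229.5 and Gstp2 at 609 ± 68.8 FPKM (SD, n = 3 each). The place of Gstp2 rests on how the FPKM tables divided it from its near copy Gstp1, since by reads it held 0.378 to 1.11% of the pair in ND. In read counts Gstp1 stood at 588 CPM in ND, below Gsta3 at 2047 and Gstm1 at 1559. Those counts also leave out reads aligned to several places, and the part of this in the first place of Gstp1 was not tested. The first 3 overlapped with their neighbour in the FPKM order, and Gstp2 lay apart from both of its neighbours. The next 5, from Gstm6 at 98.9 ± 14.2 to Gstm3 at 51.8 ± 24.1 FPKM (SD, n = 3), each overlapped with the next, and Gsta1 was the lowest at 16.2 ± 7.06. In HFD the leading 4 were Gsta3, Gstm1, Gstp1 and Gstp2, each clear of the next. In HFD_HDCA Gsta3, Gstp1, Gstm1 and Gstp2 led, the first 3 each overlapping with the next and Gstp2 clear of Gstm6.

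The alpha class was uneven. Gsta2 and Gsta4 fell in HFD_HDCA against ND. Gsta3, by far the most abundant of the class, did not pass in the main edgeR fit in any comparison, although all its HFD_HDCA libraries lay below the others. In rodents Gsta1 and Gsta2 are known as inducible by foreign compounds, Gsta3 as a constitutive enzyme that detoxifies activated aflatoxin, and Gsta4 as the form most active on 4-hydroxynonenal, an aldehyde of lipid peroxidation. Gsta3 lies on chromosome 1 from 21240589 to 21265661. The other 3 lie on chromosome 9, Gsta4 from 78191947 to 78209349, Gsta1 from 78230656 to 78242684 and Gsta2 from 78331018 to 78347158 (GENCODE M21, GRCm38, also for the positions below).

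Gsta1 and Gsta2 are close copies, and their likeness bears on how far each can be measured. Of 672 aligned coding bases they differed at 17 (97.5% identity), and the longest identical run was 196 bases. The stretch of 60 coding bases with the most differences, coding positions 449 to 508 in exon 6, is shown on the coding strand with the differing bases in capitals. It lies at chr9:78241561-78241620 (+) in Gsta1 and chr9:78332125-78332184 (−) in Gsta2.
Gsta1: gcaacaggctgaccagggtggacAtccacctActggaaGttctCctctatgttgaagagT
Gsta2: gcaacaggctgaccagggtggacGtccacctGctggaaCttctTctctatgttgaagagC
Of all 50-base windows of its transcript, Gsta1 shared 89.7% with other genes, mostly the predicted gene Gm3776, and Gsta2 shared 64.2%. Gsta3 and Gsta4 shared none.

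Gsta2 stood at 74.9, 40.3 and 37.3 CPM in ND 1 to 3, at 23.1, 13.2 and 5.10 in HFD 1 to 3, and at 5.39, 5.64 and 4.63 in HFD_HDCA 1 to 3. Every ND library lay above every other library, and HFD 3 lay among the HFD_HDCA libraries. Gsta2 fell by 3.28 ± 0.53 on the log2 scale in HFD_HDCA against ND (SE, edgeR adjusted p = 0.0120). In HFD against ND its log2 fold change was -1.88 ± 0.48 (SE, edgeR adjusted p = 0.157), and in HFD_HDCA against HFD it was -1.40 ± 0.51 (SE, edgeR adjusted p = 0.166). Leaving out each library in turn kept the call against ND in 8 of 9 fits, and it was lost without HFD_HDCA 3 (edgeR adjusted p = 0.0534). With HFD 1 left out, Gsta2 also passed in HFD against ND (log2 fold change -2.47, edgeR adjusted p = 0.0445).

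Gsta4 stood at 109.5, 89.7 and 80.3 CPM in ND 1 to 3, at 79.3, 55.9 and 36.5 in HFD 1 to 3, and at 37.8, 29.5 and 32.2 in HFD_HDCA 1 to 3. HFD 1 came close to the lowest ND library and HFD 3 fell among the HFD_HDCA libraries. Gsta4 fell by 1.49 ± 0.25 on the log2 scale in HFD_HDCA against ND (SE, edgeR adjusted p = 0.0107), a call that held in all 9 fits without a library. Its log2 fold change was -0.70 ± 0.24 in HFD against ND (SE, edgeR adjusted p = 0.286) and -0.79 ± 0.25 in HFD_HDCA against HFD (SE, edgeR adjusted p = 0.110). Without HFD 1 it passed in HFD against ND (-1.01, edgeR adjusted p = 0.0418), and without HFD 3 in HFD_HDCA against HFD (-1.03, edgeR adjusted p = 0.0358). HFD 1 was thus the highest HFD library for both Gsta2 and Gsta4.

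Gsta3 stood at 1905, 2021 and 2215 CPM in ND, at 1938, 2596 and 2062 in HFD and at 1707, 1441 and 1571 in HFD_HDCA, each in the order of replicates 1 to 3. The ND and HFD libraries overlapped, and all HFD_HDCA libraries lay below both. Its log2 fold change was 0.10 ± 0.15 in HFD against ND (SE, edgeR adjusted p = 0.847), -0.48 ± 0.15 in HFD_HDCA against HFD (SE, edgeR adjusted p = 0.0953) and -0.38 ± 0.15 in HFD_HDCA against ND (SE, edgeR adjusted p = 0.133). The middle difference was called from the FPKM tables by limma (log2 fold change of FPKM + 1 of -0.58, adjusted p = 0.0380) and by DESeq2 (adjusted p = 0.0121). In all, 4 of 18 alternative fits called it, with 0 of them among the 9 fits that left out 1 library. The difference of HFD_HDCA against ND was called in 1 of 18, that of DESeq2.

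Gsta1 was near the limit of detection. It had 43, 16 and 13 reads in ND 1 to 3, 8, 18 and 9 in HFD 1 to 3, and 9, 2 and 0 in HFD_HDCA 1 to 3. These reads came to 2.24, 0.867 and 0.752 CPM in ND and to at most 0.909 CPM elsewhere. A count of 0 in HFD_HDCA 3 allows up to 0.180 CPM, or 3 reads. Its log2 fold change of -2.52 ± 0.80 in HFD_HDCA against ND did not pass (SE, edgeR adjusted p = 0.0876). Over the alternative fits its adjusted p ran from 0.00715 (limma on FPKM) to 0.288 (edgeR without ND 1). As Gsta1 passed the filter mainly through ND, where it is high, none of these fits is support for the difference.

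In the mu class Gstm1, Gstm3 and Gstm6 fell in HFD_HDCA against ND, and Gstm6 also fell in HFD_HDCA against HFD. The 4 genes lie within a single cluster on chromosome 3, all on the minus strand: Gstm6 from 107938847 to 107943749, Gstm3 from 107963696 to 107969283, Gstm2 from 107981702 to 107986453 and Gstm1 from 108012255 to 108017973. Gstm1 encodes the main mu subunit of mouse liver, and the others are related subunits with their own substrate ranges. Their coding sequences were 82.8 to 89.5% identical in pairs, and 9.36 to 28.8% of their 50-base windows were shared with other genes. Members of different classes were 47.7 to 52.5% identical.

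Gstm1 stood at 1782, 1670.2 and 1226 CPM in ND, at 782, 1004 and 861 in HFD and at 663, 643 and 494 in HFD_HDCA, in the order of replicates 1 to 3. The 3 groups did not overlap. Gstm1 fell by 1.38 ± 0.18 on the log2 scale in HFD_HDCA against ND (SE, edgeR adjusted p = 0.00330). The steps on either side of HFD did not pass alone, with log2 fold changes of -0.82 ± 0.18 for HFD against ND (SE, edgeR adjusted p = 0.0717) and -0.56 ± 0.18 for HFD_HDCA against HFD (SE, edgeR adjusted p = 0.111). DESeq2 called both (adjusted p = 0.000470 and 0.0329). The step from ND to HFD also passed with edgeR when no filter on low counts was used (adjusted p = 0.0498). It passed in 1 of the 9 edgeR fits without a library too (adjusted p = 0.0471).

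Gstm6 stood at 140.6, 138 and 114 CPM in ND, at 83.6, 94.96 and 97.7 in HFD and at 66.0, 51.8 and 58.4 in HFD_HDCA, in the same order. Its groups were separate too, and the spread within each was small. Gstm6 fell by 0.65 ± 0.13 on the log2 scale in HFD_HDCA against HFD (SE, edgeR adjusted p = 0.0278) and by 1.15 ± 0.13 in HFD_HDCA against ND (SE, edgeR adjusted p = 0.00154). For HFD against ND the log2 fold change was -0.51 ± 0.13 (SE, edgeR adjusted p = 0.124). The call against HFD was lost in 4 of the 9 fits without a library, those without HFD 2, HFD 3, HFD_HDCA 2 or HFD_HDCA 3, where the edgeR adjusted p lay between 0.0504 and 0.0941, and also when only the HFD and HFD_HDCA libraries were fitted (0.0689). The call against ND held in all 9.

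The profiles of Gstm1 and Gstm6 over the 9 libraries were nearer to each other than to any other of the 10 genes, at a root mean square distance of 0.203 on the log2 scale. Their coding sequences differed at 113 of 657 bases with a longest identical run of 33. The stretch of 60 coding bases with the most differences was the last, positions 598 to 657 in exon 8. It is shown on the coding strand, with differing bases in capitals, at chr3:108012689-108012748 (−) in Gstm1 and chr3:107939227-107939286 (−) in Gstm6.
Gstm1: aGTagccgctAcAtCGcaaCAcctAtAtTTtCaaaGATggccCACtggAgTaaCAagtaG
Gstm6: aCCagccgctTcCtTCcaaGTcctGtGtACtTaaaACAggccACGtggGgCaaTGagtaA
They differed at 24 of these 60 bases.

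Gstm3 stood at 99.0, 54.0 and 39.0 CPM in ND, at 13.1, 36.2 and 24.2 in HFD and at 13.6, 4.53 and 4.45 in HFD_HDCA, in the order of replicates 1 to 3. HFD 1 and HFD_HDCA 1 were nearly equal, and the ND libraries spanned a wide range. Gstm3 fell by 3.09 ± 0.59 on the log2 scale in HFD_HDCA against ND (SE, edgeR adjusted p = 0.0233). The call was lost without ND 1 (edgeR adjusted p = 0.0804), without ND 2 (0.0581), without HFD_HDCA 3 (0.0797) and with no filter on low counts (0.0535). Its log2 fold change was -1.39 ± 0.54 in HFD against ND (SE, edgeR adjusted p = 0.374) and -1.71 ± 0.58 in HFD_HDCA against HFD (SE, edgeR adjusted p = 0.141). Without both HFD 1 and HFD_HDCA 1 the latter passed at -2.72 (edgeR adjusted p = 0.0436).

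Gstm2 stood at 75.8, 66.1 and 55.5 CPM in ND, at 37.8, 91.6 and 59.6 in HFD and at 35.0, 17.7 and 27.2 in HFD_HDCA. The HFD libraries spanned the whole ND range, and the HFD_HDCA libraries lay below both groups. No comparison of Gstm2 passed with edgeR, where HFD_HDCA had a log2 fold change of -1.31 ± 0.34 against ND (SE, adjusted p = 0.0546) and -1.24 ± 0.33 against HFD (SE, adjusted p = 0.0809). Without HFD 1 both passed (edgeR adjusted p = 0.0215 and 0.0239).

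Of the pi genes, Gstp1 had its lowest group mean in HFD, whereas the 8 genes of the other classes had theirs with HDCA. For Gstp2 the means of those groups were nearly equal by unique reads, at 1.07 CPM in HFD and 1.17 in HFD_HDCA. By FPKM, which divides the pair differently, Gstp2 stood at 171 ± 18.0 in HFD and 398 ± 219 in HFD_HDCA (SD, n = 3 each). On that scale its lowest mean was in HFD, as for Gstp1. Gstp1 was lower in all HFD libraries than in all ND libraries and was back near the ND level in 1 of the 3 HFD_HDCA livers. The pi class enzyme is an abundant GST of mouse liver that is higher in males and is also known to restrain the stress kinase JNK. Both genes lie on the minus strand of chromosome 19, Gstp1 from 4035407 to 4037985 and Gstp2 from 4040285 to 4042263.

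Gstp1 stood at 650.5, 500.1 and 614 CPM in ND, at 175, 151 and 148 in HFD and at 607, 378 and 174 in HFD_HDCA, in the order of replicates 1 to 3. The HFD libraries agreed closely, whereas those with HDCA ran from the HFD level to the ND level. In HFD against ND its log2 fold change was -1.90 ± 0.37 (SE, edgeR adjusted p = 0.0588), which did not pass. That value passed when only the ND and HFD libraries were fitted (-1.90, edgeR adjusted p = 0.00501), without HFD_HDCA 1 (0.0157), without HFD_HDCA 3 (0.00364) and with DESeq2. The shared estimate of spread in the fit of all libraries includes the HFD_HDCA group.

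In HFD_HDCA against HFD, Gstp1 had a log2 fold change of 1.29 ± 0.36 (SE, edgeR adjusted p = 0.0907). Without HFD_HDCA 3 it passed at 1.64 (edgeR adjusted p = 0.0139), and without HFD_HDCA 1 it stood at 0.82 (edgeR adjusted p = 0.166). HFD_HDCA 1, the highest of the 3, was the library with raised acute phase genes, and its 8 cholangiocyte markers summed to 126 CPM against 61.6 and 57.3 in the other 2. Most of these sums was 1 gene, Spp1, at 107 CPM in HFD_HDCA 1 and at 48.8 and 46.6 in HFD_HDCA 2 and HFD_HDCA 3. The part of the acute phase genes or of these markers in the level of Gstp1 was not tested. HFD_HDCA 2 and HFD_HDCA 3, with acute phase genes at 7886 and 8416 CPM, held 378 and 174 CPM of Gstp1. In HFD_HDCA against ND the log2 fold change was -0.61 ± 0.36 (SE, edgeR adjusted p = 0.311).

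Gstp2 had 75, 35 and 119 reads in ND, 24, 19 and 18 in HFD and 25, 22 and 12 in HFD_HDCA, which came to 3.90, 1.90 and 6.88, to 1.3, 0.960 and 0.938, and to 1.51, 1.28 and 0.722 CPM. It was called lower in HFD_HDCA against ND (log2 fold change -1.84 ± 0.45, SE, edgeR adjusted p = 0.0391), a call kept in 3 of the 9 fits without a library, with adjusted p up to 0.131, and lost with the replicate number as a block (0.0642) and when only these 2 groups were fitted (0.0530). The calls of the 9 fits were lost without ND 1, ND 3, HFD 3 or any 1 of the HFD_HDCA libraries. In the FPKM tables the log2 fold change was -0.79 (limma, adjusted p = 0.262). From the counts it was -1.98 ± 0.45 in HFD against ND (SE, edgeR adjusted p = 0.0823) and 0.14 ± 0.49 in HFD_HDCA against HFD (SE, edgeR adjusted p = 0.893).

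The sequence of Gstp2 is nearly that of Gstp1. The coding sequences differed at 12 of 633 bases (98.1% identity), with an identical run of 303 bases, and 62.3% of the 50-base windows of Gstp1 and 72.6% of those of Gstp2 were shared with other genes, chiefly with each other. The 60 coding bases with the most differences, positions 271 to 330 in exon 5, are shown on the coding strand with differing bases in capitals, at chr19:4036694-4036753 (−) in Gstp1 and chr19:4040988-4041047 (−) in Gstp2.
Gstp1: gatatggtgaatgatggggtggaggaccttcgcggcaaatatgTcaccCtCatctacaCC
Gstp2: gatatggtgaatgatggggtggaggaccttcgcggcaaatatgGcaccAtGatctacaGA
Reads without such a difference match both genes equally well.

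The deposited tables divided the pair in different ways. Of the reads counted on either gene, Gstp2 took 0.249 to 1.11% in the 9 libraries, but of the FPKM of both it took 30.5 to 31.5%. Gsta1 took 0 to 9.18% of the reads of Gsta1 and Gsta2 and 12.4 to 30.1% of their FPKM. Reads aligned to several places, which the count files set aside, made up 16.6 to 19.4% of the ND files, 13.3 to 14.0% of the HFD files and 14.5 to 15.97% of the HFD_HDCA files. Their part in the counts of these copies was not tested. With the counts of each pair summed, the log2 fold changes of the Gstp1 and Gstp2 sum were -1.90 in HFD against ND, 1.28 in HFD_HDCA against HFD and -0.61 in HFD_HDCA against ND (edgeR adjusted p = 0.0588, 0.0909 and 0.306). The sum of Gsta1 and Gsta2 fell by 3.26 in HFD_HDCA against ND (edgeR adjusted p = 0.0113).

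**Figure D2:**
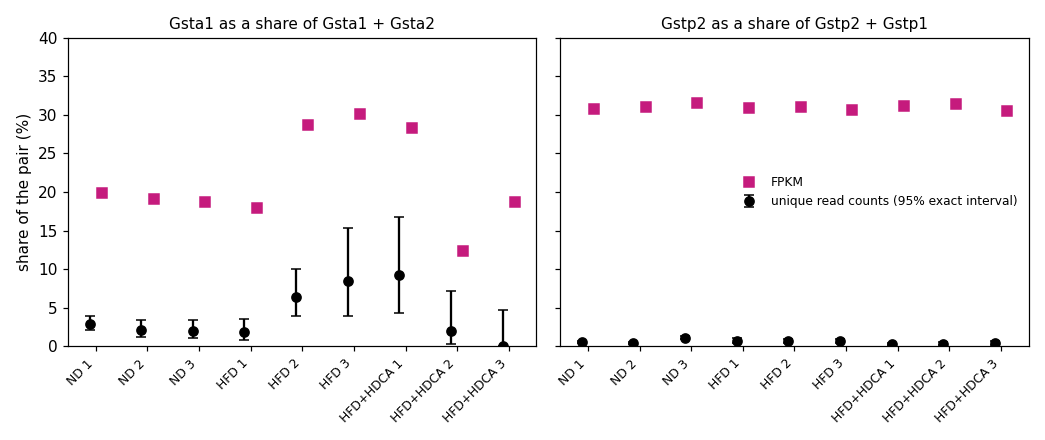
Share of Gsta1 in the pair Gsta1 and Gsta2 (left) and of Gstp2 in the pair Gstp1 and Gstp2 (right), in percent, for each library. Black circles are unique read counts with exact 95% binomial intervals, which cover counting error only, and squares are FPKM. Gstp2 stays at or under 1.11% of reads and at 30.5 to 31.5% of FPKM.

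Both pi genes also share promoter sequence, with 207 of 265 aligned columns identical (78.1%) over the 250 bases before the RefSeq start. Bases -190 to -60 from that start are shown from RefSeq (GRCm38.p6), on the gene's strand, at chr19:4037972-4038102 (−) for Gstp1 and chr19:4042281-4042411 (−) for Gstp2. Capitals mark a match to TGAGNNNGC.
Gstp1: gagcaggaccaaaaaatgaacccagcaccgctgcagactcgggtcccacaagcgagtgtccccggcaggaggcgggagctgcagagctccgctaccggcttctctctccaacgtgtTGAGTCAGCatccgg
Gstp2: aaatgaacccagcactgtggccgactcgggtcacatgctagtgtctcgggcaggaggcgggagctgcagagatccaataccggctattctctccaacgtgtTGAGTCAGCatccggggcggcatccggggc
The letters searched, on both strands, were TGACNNNGC, the core of the antioxidant response element through which NRF2 acts, its variant TGAGNNNGC, which was added after these sequences had been seen, and AGGTCA, the half-site of many nuclear receptors. The match TGAGTCAGC also holds TGAGTCA, the core of AP-1 sites. Gstp1 had it at -74 to -66 and Gstp2 at -89 to -81, and Gstp1 had another match, GCGTCCTCA on the opposite strand, at -9 to -1. The GENCODE transcript of Gstp1 begins at 4037985, upstream of the RefSeq start, so most of its first match and all of its other match lie within that transcript. That of Gstp2 begins at 4042263, downstream of its match. Gsta3 had TGACATTGC at -121 to -113. In all, 3 of the 9 members with a promoter entry held either form of the core, against 23.0% of 32851 promoters (TGACNNNGC in 10.2%, TGAGNNNGC in 14.4%). AGGTCA, found in 14.0% of promoters, was in none of the 9. A match of letters is a description and shows no binding.

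Across the 10 genes the first comparison asked what HFD changed relative to ND. With edgeR 0 of the 10 were called, and 0.477% of all genes tested were called lower and as many higher (0.953% in either direction). At an unadjusted p under 0.05, 7 of the 10 were lower and 0 higher, where 4.83% of all genes were lower and 6.67% higher, and DESeq2 called 5 lower (Gsta2, Gstm1, Gstm6, Gstp1 and Gstp2) against 1.5% of all genes. From the FPKM tables limma called 0 of the 10, against 0.496% called lower. The HFD libraries lay wholly below the ND libraries in 7 of the 10 genes and in 9.2% of all genes. The log2 fold change was below 0 in 9 of the 10 and in 46.7% of all genes, with a median of -0.95 over the 10 and 0.02 over all.

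Adding HDCA to the HFD lowered 1 of the 10 with edgeR, Gstm6, and raised 0, where 1.73% of all genes were called lower and 1.67% higher (3.4% in either direction). At an unadjusted p under 0.05, 7 were lower (10.4% of all genes) and 1, Gstp1, was higher (11.6%), and the groups did not overlap, with HDCA lower, in 4 of the 10 and in 11.1% of all genes. DESeq2 called 5 lower (3.99% of all genes), namely Gsta3, Gsta4, Gstm1, Gstm2 and Gstm6, and called Gstp1 higher. From the FPKM tables limma called 2 lower, Gsta3 and Gstm6 (2.56% of all genes). The median log2 fold change was -0.72 over the 10 and -0.00 over all genes, 8 of the 10 being below 0 (50.3% of all genes). This comparison shares its HFD libraries with the first.

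Set against ND, HFD with HDCA lowered 6 of the 10 with edgeR, Gsta2, Gsta4, Gstm1, Gstm3, Gstm6 and Gstp2, where 2.82% of all genes were called lower. None was called higher, against 3.65% of all genes (6.47% in either direction), and at an unadjusted p under 0.05 the counts were 9 lower (11.4% of all genes) and 0 higher (14.8%). The HFD_HDCA libraries lay wholly below ND in 9 of the 10, all but Gstp1, and in 16.1% of all genes. All 10 log2 fold changes were below 0 (47% of all genes), with a median of -1.43 against 0.03 for all genes. DESeq2 called 9 lower (5.32% of all genes), and limma on FPKM called 6 lower (2.01%), with Gsta1 in place of Gstp2. Gsta1, which passed the filter mainly through ND, is among the 9 at an unadjusted p, the 9 wholly below ND and the calls of DESeq2 and limma. It also enters the medians and the counts below 0 of each comparison, and is no support for any of them. The 10 genes were chosen with such results known, so these shares describe them and are no independent support.

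**Figure D3:**
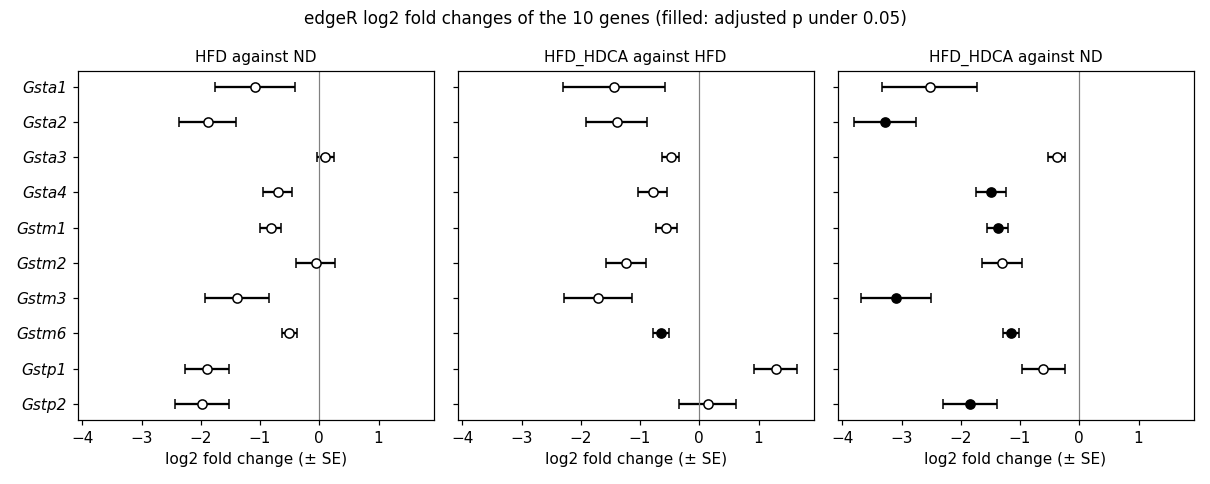
edgeR log2 fold changes (points, ± SE) of the 10 GST genes in the 3 comparisons, with filled points for an adjusted p under 0.05. No point is filled for HFD against ND, Gstm6 is filled for HFD_HDCA against HFD and 6 genes are filled for HFD_HDCA against ND; Gstp1 lies at 1.29 in the middle panel.

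The pool of GST transcripts, the summed FPKM of the 10 genes, was 4613 ± 279 in ND, 2825 ± 229 in HFD and 2715 ± 768 in HFD_HDCA (SD, n = 3 each). The HFD_HDCA libraries spanned the HFD range on this scale. Read counts do not correct for length and also leave out reads aligned to several places. On that scale the sums were 4605 ± 229, 3491 ± 486 and 2692 ± 399 CPM (SD, n = 3 each), with the HFD_HDCA mean lowest. The part of each in the gap between the scales was not tested. The pi class held 42.5 ± 4.16% of the pool in ND, 19.7 ± 3.01% in HFD and 44.4 ± 14.1% in HFD_HDCA (SD, n = 3 each). By reads the pi class was a smaller part, at 593 ± 80.2, 159 ± 14.8 and 387 ± 217 CPM (SD, n = 3 each), and Gstp2 made up 30.5 to 31.5% of its FPKM against 0.249 to 1.11% of its reads. The mu class held 1272 ± 273, 797 ± 98.0 and 474 ± 61.3 FPKM in the same order, and the alpha class, mostly Gsta3, held 1379.8 ± 27.4, 1476 ± 169 and 965 ± 40.5 (SD, n = 3 each).

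Without the pi class the pool ran from 2369.6 to 2827 FPKM in ND, from 2076 to 2563 in HFD and from 1368 to 1517 in HFD_HDCA. Its HFD_HDCA libraries lay below all others, and ND and HFD overlapped. The pi class itself stood at 1935, 1341 and 551 FPKM in HFD_HDCA 1, 2 and 3, against 513 to 618 in HFD. The other 13 GST genes in the tables together held 929 ± 59.6, 1137 ± 98.7 and 993 ± 88.4 FPKM in ND, HFD and HFD_HDCA (SD, n = 3 each).

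**Figure D4:**
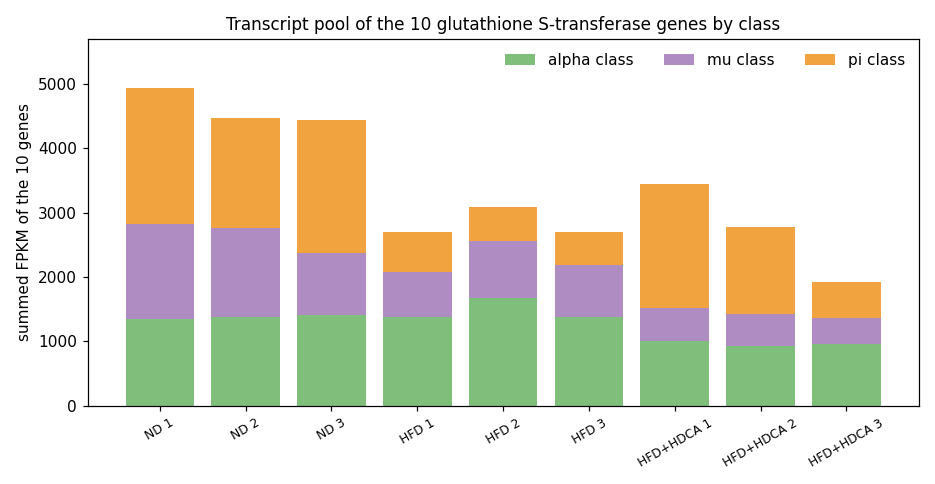
Summed FPKM of the 10 GST genes in each library, stacked by class on a linear axis from 0. The pi part shrinks from 1709.6 to 2107 FPKM in ND to 513 to 618 in HFD and varies from 551 to 1935 in HFD_HDCA, and the mu part is smallest in HFD_HDCA.

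In the other lists of glutathione genes at most 3 genes passed in any comparison. Of 16 further GST genes listed, 11 were tested and edgeR called 0 in HFD against ND (1 higher and 2 lower at an unadjusted p under 0.05, 1 lower with DESeq2). Their median log2 fold change in HFD_HDCA against ND was 0.16. Gstm7, a neighbouring mu gene, fell by 0.46 on the log2 scale in HFD_HDCA against HFD and by 0.54 against ND (edgeR adjusted p = 0.0345 and 0.0119). Gstt3, of the theta class, fell by 0.90 against ND (edgeR adjusted p = 0.0430). The zeta gene Gstz1, which acts in tyrosine breakdown, had log2 fold changes of 0.31, -0.02 and 0.29 in the 3 comparisons (edgeR adjusted p of 0.298 to 0.960).

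Of the membrane-bound GSTs and their relatives (the MAPEG family), 3 of 6 were tested and 0 were called in any comparison with edgeR or DESeq2. At an unadjusted p under 0.05, 1 was higher in each comparison with ND and 0 in HFD_HDCA against HFD. Mgst1, the main microsomal GST, stood at 4137 ± 61.8 CPM in ND, 4062 ± 493 in HFD and 4444 ± 849 in HFD_HDCA (SD, n = 3 each). The log2 fold changes against ND of Mgst3 were 0.50 with HFD and 0.52 with HDCA (edgeR adjusted p = 0.220 and 0.0755).

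For glutathione synthesis and turnover, 14 of 17 genes were tested and 0 passed in HFD against ND with edgeR (2 higher and 1 lower at an unadjusted p under 0.05, 1 higher with DESeq2). Oplah, the oxoprolinase that returns glutamate to the cycle, rose by 0.67 in HFD_HDCA against HFD and by 0.61 against ND on the log2 scale (edgeR adjusted p = 0.0287 and 0.0264). In HFD_HDCA against ND, Ggct, which makes oxoproline, rose by 0.73 and Cbs, which starts the route from homocysteine to cysteine, fell by 0.59 (edgeR adjusted p = 0.0468 and 0.0418). The log2 fold change of Ggct was already 0.87 in HFD against ND (edgeR adjusted p = 0.0662). In HFD_HDCA against HFD it was -0.15 (edgeR adjusted p = 0.678). Gclc, the catalytic subunit of the rate-limiting enzyme of glutathione synthesis, stood at 523 ± 46.5, 549.6 ± 87.6 and 538 ± 101 CPM in ND, HFD and HFD_HDCA (SD, n = 3 each).

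Of 13 tested peroxidases, glutaredoxins and glyoxalases, edgeR called 0 in each comparison. At an unadjusted p under 0.05, 0 differed in HFD against ND, 3 were higher and 1 lower in HFD_HDCA against HFD and 5 were higher and 1 lower in HFD_HDCA against ND. With DESeq2, 2 passed, both higher in HFD_HDCA against HFD. The smallest edgeR adjusted p in HFD_HDCA against HFD were those of Glrx (0.0759), Gpx4 (0.102) and Glrx3 (0.149). Of 13 tested genes for conjugate export and mercapturate formation, edgeR called 0 in each comparison. Those lower at an unadjusted p under 0.05 numbered 2 in HFD against ND, 4 in HFD_HDCA against HFD (1 higher) and 5 in HFD_HDCA against ND. The DESeq2 fit gave 1, 2 (1 higher) and 3 lower in the same order. In HFD_HDCA against ND the smallest edgeR adjusted p were those of the transporter gene Abcc6 (0.0710), the acetyltransferase gene Nat8 (0.0739) and the transporter gene Abcc2 (0.0948). The log2 fold change of Nat8 was -1.46 there and -1.20 in HFD against ND (edgeR adjusted p = 0.286).

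Among 19 targets of NRF2 outside the GSTs, 1 fell in HFD_HDCA against ND, Ugdh, which makes UDP-glucuronate, by 0.90 on the log2 scale (edgeR adjusted p = 0.0107), with a list median of -0.16 against -1.43 for the 10 GST genes. Among 19 genes of factors that regulate GST genes, 2 rose and 1 fell in HFD_HDCA against ND. Nr1i3, encoding the xenobiotic receptor CAR, rose from 134 ± 11.7 to 272 ± 32.7 CPM, Nr1h4, encoding the bile acid receptor FXR, rose from 103 ± 14.8 to 169 ± 12.6, and Hnf4a, encoding a hepatocyte factor, fell from 746 ± 35.2 to 535 ± 54.5 (SD, n = 3 each, edgeR adjusted p = 0.0149, 0.0202 and 0.0431). Nfe2l2, encoding NRF2 itself, stood at 70.3 ± 7.88, 103.6 ± 6.61 and 74.3 ± 10.2 CPM in ND, HFD and HFD_HDCA (SD, n = 3 each, edgeR adjusted p = 0.0831 for HFD against ND and 0.0686 for HFD_HDCA against HFD). In HFD against ND and in HFD_HDCA against HFD edgeR called 0 of both lists. At an unadjusted p under 0.05, 2 NRF2 targets were lower in the first and 4 in the second, and 3 regulators were higher and 3 lower in the first and 2 each way in the second. DESeq2 called 1 NRF2 target lower and 1 regulator higher in the first, and 3 targets and 2 regulators lower in the second. In HFD_HDCA against ND, 14 of the 19 NRF2 targets had a log2 fold change below 0. Before adjustment (p under 0.05) 5 targets were lower there and 1 higher, and with DESeq2 3 were lower. The regulators numbered 5 lower and 3 higher there before adjustment, and 3 each way with DESeq2.

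**Figure D5:**
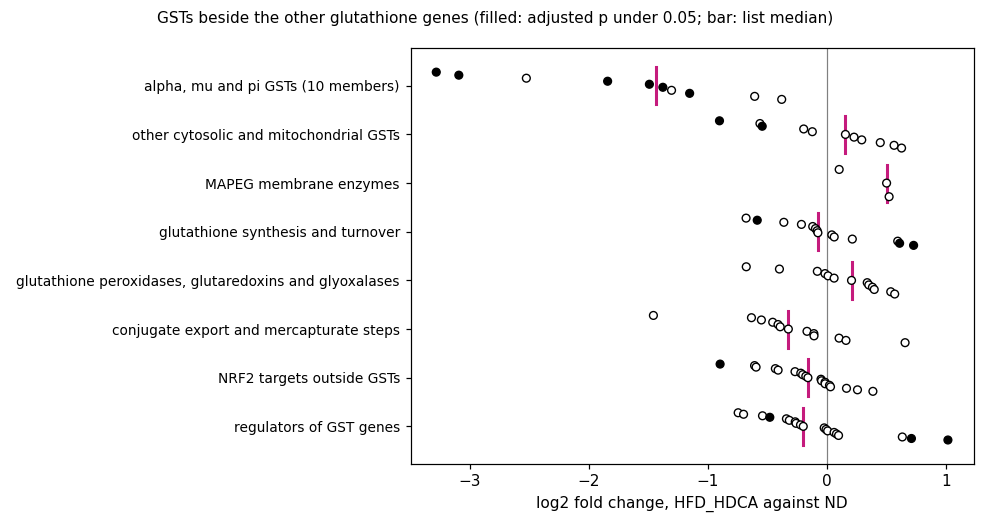
edgeR log2 fold changes in HFD_HDCA against ND of the tested genes in each list, with filled points for an adjusted p under 0.05 and a bar at the list's median. The 10 alpha, mu and pi GSTs have a median of -1.43, and the medians of the other 7 lists drawn, all of glutathione genes, their regulators or NRF2 targets, lie between -0.32 and 0.50.

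Of the 8 hepatocyte markers, edgeR called 3 lower (Cps1, Hnf4a and Tat) and 0 higher in HFD_HDCA against ND, and the list's median was 0.12. The other 5 had log2 fold changes above 0. At an unadjusted p under 0.05, 3 were higher and 3 lower, and DESeq2 called 2 higher and 3 lower. The 3 higher were Alb, Apoa1 and Ttr, with log2 fold changes of 0.38, 0.45 and 0.29 (edgeR adjusted p = 0.139, 0.0800 and 0.164). Cps1, a urea cycle enzyme, had a log2 fold change of -1.11 and Tat, tyrosine aminotransferase, -1.74 (edgeR adjusted p = 0.00619 and 0.0146). The lists of macrophage, cholangiocyte, endothelial, stellate, lymphocyte and neutrophil markers held 0 called genes in the 3 comparisons with edgeR. DESeq2 called 1 of these markers, a stellate gene lower in HFD_HDCA against ND. At an unadjusted p under 0.05 up to 3 genes of a list differed, with 3 T, NK and B cell genes higher in each HDCA comparison. That list summed to 3.31 to 4.22 CPM in ND, 2.78 to 4.66 in HFD and 6.56 to 6.85 in HFD_HDCA. Steap4 of the acute phase list and Per2 of the clock list fell in both HDCA comparisons (edgeR adjusted p of 0.00825 to 0.0372). The part of any of these in the GST results was not tested.

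Finally, each of the 10 genes was compared with 10244 other genes by the root mean square distance between log2 CPM profiles over the 9 libraries, each centred on its own mean. Gstp1 lay nearest to Cadm4 (0.264), Susd4 (0.367) and Mup13 (0.383), and Gstp2 to Mup1, Kcp and Fgfr1. Cadm4 stood at 8.54 ± 0.671 CPM in ND, 2.42 ± 0.140 in HFD and 6.53 ± 2.20 in HFD_HDCA (SD, n = 3 each), the order of Gstp1. Gstm1 lay nearest to Neb, Cyp2c44 and Myh10, and Gstm6 to Arhgdia, Shb and Dmxl2, at 0.163 to 0.201. Gsta4 lay nearest to Klf15, Ppat and Cyp2c44 (0.218 to 0.239), and Gsta2 to Pfkfb3, Cyp1a2 and Ctgf (0.552 to 0.706). Gsta3 was nearest to Ttll1, Lass2 and Rspry1, Gstm2 to Aldh1a7, Dcaf12l1 and Rhbg, and Gstm3 to Ces2c, Cyp2c55 and Slc39a4. Gsta1 was nearest to Slc39a4, Rhbg and Ces2c. Its own group means, 1.29, 0.604 and 0.220 CPM in ND, HFD and HFD_HDCA, lay under the mean of 2 CPM asked of the genes searched. Its profile thus rests on few reads. These distances describe 9 libraries from 3 diets and come with no test.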

How the data were processed

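RNA sequencing was done on 9 mouse livers, 3 per diet, grouped by the sample titles. The authors deposited raw read counts per gene from HTSeq, per the labels' file names, which carry the word antisense, with a setting that is not given in the sources used here. They also deposited FPKM per gene, per the file headers. TopHat 1.3.2, Cufflinks 2.0.2 and mm10 are named in the submitters' processing notes, and the HTSeq version and the annotation are not given in the sources used here. Files held 24785892 to 28809292 reads, of which 63.9 to 72.1% lay on genes, and 5 classes of unassigned reads were left out. A count of 0 allows up to 3 reads, or 0.152 to 0.182 CPM, for counting error only.

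Counts were fitted with edgeR 4.0.16 in R 4.3.3 (filterByExpr with a minimum count of 10, TMM factors, robust quasi-likelihood F tests, all 9 libraries in 1 model). Two-sided p-values were adjusted by Benjamini-Hochberg over the 12587 genes tested, and a gene was called at an adjusted p under 0.05. Standard errors are those implied by the F statistic. Alternatives were DESeq2 1.42.0 and its size factors, no filter, limma 3.58.1 on log2 FPKM with 1 or 0.1 added (mean FPKM of at least 0.1), fits of 2 groups, a replicate block, each library left out, HFD 1 and HFD_HDCA 1 left out together, and near-identical copies summed. For FPKM, 246 symbols with several loci were summed and 50 symbols turned into dates were dropped. The fit was tested on simulated data.

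The labels name separate samples but no cages or litters, so p-values measure the spread between these samples, which may be technical. The 10 genes and all gene lists were chosen with earlier results of these data known. All 10 were named, with the called genes of each other list (or up to 3 with the smallest p) and the 3 genes of nearest profile to each, among genes with a mean of at least 2 CPM. The log2 profiles used a prior count of 3. Transcripts and positions came from GENCODE M21 and promoters from RefSeq.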

Additional observations from a re-analysis of the deposited data

How the results depend on the processing

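Over the 10 genes and all alternatives, 467 values kept their direction and their side of the threshold, 40 came to pass it, 21 no longer passed and 5 changed sign, apart from the counts below that moved. The changes of sign were not called: Gstm2 in HFD against ND (log2 fold change -0.06) stood at 0.05 without ND 1, 0.20 without HFD 1 and 0.17 without both HFD 1 and HFD_HDCA 1 (-0.44 to 0.20 with 1 library left out). Gsta3 in HFD against ND ran from -0.034 without HFD 2 to 0.18, and Gstp2 in HFD_HDCA against HFD from -0.073 without HFD_HDCA 1 to 0.39. DESeq2 called 380, 1085 and 1398 genes in HFD against ND, HFD_HDCA against HFD and HFD_HDCA against ND, where edgeR called 120, 428 and 815, and 5 and 6 of the 10 GST genes in the first 2, where edgeR called 0 and 1. In HFD against ND, 1 GST gene was called with no filter (117 of all 16996 genes) and 1 in the fit of 2 groups (153 of all 12402 genes). Without both HFD 1 and HFD_HDCA 1, 2 GST genes were called, of 576 genes in all. In HFD_HDCA against HFD, 2 GST genes were called from FPKM with either pseudocount, both lower, where 345 of all 13495 genes were called lower with 1 added. The fit of 2 groups called 0 GST genes of 134 genes, and 4 of 977 were called without that pair of libraries. Leaving out 1 library gave 32 to 226, 127 to 672 and 196 to 1213 genes in the 3 comparisons and 0 to 2, 0 to 2 and 3 to 7 GST genes. The lowest of the last, 3 GST genes in HFD_HDCA against ND, came without HFD_HDCA 3. The cause of these shifts was not tested.

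With the replicate number as a block, 82, 328 and 715 genes and 0, 1 and 5 GST genes were called, Gstp2 being lost. Same-numbered libraries had correlations of their deviations from -0.149 to 0.153, so the numbers were not taken as a pairing. Depth limits Gsta1 and Gstp2, with 0 to 43 and 12 to 119 reads a library.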
